A study of Homo sapiens with 4 samples.

Results

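HS6ST2 and 9 further genes whose products build, sulfate or trim heparan sulfate were followed in GALNT3 knockdown clones of A2780s, a human ovarian adenocarcinoma cell line. The genes were HS6ST1, HS6ST2, HS6ST3, HS2ST1, NDST1, NDST2, EXT1, EXT2, SULF1 and SULF2, 10 of the 17240 genes that could be named from the probes of the array. The set was chosen by the high ratio of HS6ST2 in knockdown over ctrl in these data, so ratios of knockdown over ctrl are given for all 10 genes as a description and without a test. The array held 16 probes for them, each recognised by its transcript accession, and the probes were kept apart. Each of the 16 was well above background in at least 1 channel of every array and passed the filter on dim probes.
The study compared 2 stable knockdown clones, sh-G1 and sh-G2, with 1 mock-transfected clone (ctrl), all grown out under puromycin. Both knockdown clones carried the same shRNA against GALNT3, a transferase that starts mucin-type O-glycosylation, and ctrl carried the empty vector. Each line was a single clone, so the spread among ctrl clones was not measured. Total RNA of each knockdown clone was hybridised with that of ctrl on 2 Agilent Whole Human Genome arrays of 2 colours. Replicate 1 had the knockdown RNA labelled with Cy5 and the ctrl RNA with Cy3, and replicate 2 had the labels swapped. Whether the dye-swapped arrays of a clone held the same RNA extract was not stated, so they were averaged and counted as 1 replicate, which gives n = 2 clones, and p-values from the 4 arrays measure a spread that may be technical.
All values are log2 ratios of knockdown over ctrl unless called a level, so that 1 is a doubling. A level is the log2 intensity of a channel after normalisation, comparable between the channels and arrays of 1 probe but not between probes. Between 88.1% and 97.0% of spots were well above background in the knockdown channel of an array and at least 95.9% in the ctrl channel, and all arrays lay on 1 slide. Precision is limited by having only 4 arrays. Over all probes, Pearson's r between the swapped arrays was 0.32 (sh-G1) and 0.19 (sh-G2), and between arrays labelled the same way it was 0.61 and 0.73.
Heparan sulfate is a long sugar chain attached to core proteins such as syndecans and glypicans at the cell surface and perlecan in the matrix. Polymerases lengthen the chain in the Golgi, N-deacetylase/N-sulfotransferases start its modification, and O-sulfotransferases add sulfate at the 2-O, 6-O and 3-O positions, which sets which growth factors can bind. After export, the endosulfatases SULF1 and SULF2 take 6-O-sulfate off again at the cell surface, and both have been studied in ovarian cancer.
GALNT3 was read first, as the gene the shRNA targets. Its only probe (A_24_P114249) had log2 ratios of -0.09 and 0.08 for sh-G1 and 0.12 and -0.14 for sh-G2. The values lay on both sides of 0 in each clone, with a mean of -0.01 (SE 0.04, limma adjusted p = 0.963). Its ctrl signal was well above background on all 4 arrays and its knockdown signal on 2. Only 0.411% of the probes kept were dimmer, which left little room for a lower value, and the clones are called knockdown clones by their labels. The RT-PCR and protein blots by which the study chose them were not analysed here.
Among the 6-O-sulfotransferases, HS6ST2 had a high ratio at 1 of its 2 probes, and HS6ST1 and HS6ST3 lay near ctrl. The 250 bases before the RefSeq gene start of each (assembly GRCh38.p14) are printed 5′ to 3′ on the gene's strand, to set HS6ST2 beside its paralogs at the sequence level. Capitals mark CpG dinucleotides.
HS6ST2 (chrX:132961371-132961620, minus strand): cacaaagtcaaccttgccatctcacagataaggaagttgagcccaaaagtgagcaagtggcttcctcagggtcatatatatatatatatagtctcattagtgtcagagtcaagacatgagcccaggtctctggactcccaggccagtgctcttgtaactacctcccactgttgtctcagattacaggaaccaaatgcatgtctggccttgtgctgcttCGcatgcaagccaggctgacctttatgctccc
HS6ST1 (chr2:128318869-128319118, minus strand): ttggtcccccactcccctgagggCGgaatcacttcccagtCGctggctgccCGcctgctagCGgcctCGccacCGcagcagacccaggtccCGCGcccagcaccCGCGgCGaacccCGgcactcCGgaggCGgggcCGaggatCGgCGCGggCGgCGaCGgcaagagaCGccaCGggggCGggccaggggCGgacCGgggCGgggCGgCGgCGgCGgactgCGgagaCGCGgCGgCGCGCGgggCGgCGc
HS6ST3 (chr13:96089857-96090106, plus strand): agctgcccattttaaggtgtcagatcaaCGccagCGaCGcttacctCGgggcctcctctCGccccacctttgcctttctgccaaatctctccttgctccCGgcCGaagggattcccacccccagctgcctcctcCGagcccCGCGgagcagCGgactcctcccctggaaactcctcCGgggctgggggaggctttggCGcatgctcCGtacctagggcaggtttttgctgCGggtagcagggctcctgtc
The HS6ST2 window held 1 CpG and 48% G and C, the HS6ST1 window 40 CpG and 80.4%, and the HS6ST3 window 15 CpG and 64.4%. Over 35114 windows of this kind the medians were 11 CpG and 58% G and C, and 14.7% of the windows held no more CpG than that of HS6ST2. TATAAA, searched on both strands, was found in none of the 3 windows and in 10.7% of all windows. GGGCGG, searched on both strands, was found for HS6ST1 and not for HS6ST2 or HS6ST3, and in 42.6% of all windows. Methylation was not measured on these arrays, and these are properties of the reference sequence only.
HS6ST2 adds sulfate to the 6-O position of glucosamine. At probe A_24_P105191 its median spot intensity on the 2 arrays of sh-G1 was 22109 and 25060 in the knockdown channel against 3135 and 1824.5 in the ctrl channel. On the arrays of sh-G2 it was 37314 and 40992 against 3069.5 and 2288.5. Every knockdown intensity was far above every ctrl intensity. The normalised ctrl level was 11.12, 11.16, 11.08 and 11.21 on the 4 arrays, and the knockdown level was 14.74 and 14.93 in sh-G1 and 15.32 and 15.24 in sh-G2. In ctrl the probe was therefore well above background, and the levels of ctrl and of the clones did not overlap. The log2 ratios were 3.62 and 3.77 for sh-G1 and 4.24 and 4.03 for sh-G2, which are 12.3-fold, 13.7-fold, 18.9-fold and 16.3-fold. Their mean was 3.91 ± 0.31 (SD, n = 2 clones), or 15.1-fold, and ranked 1 of 39152 probes kept. Since HS6ST2 was chosen by its high ratio, the rank and the gap to ctrl are a description only. In bulk RNA, more cells expressing a gene cannot be told apart from more RNA per cell.
The other HS6ST2 probe, A_24_P58233, gave a different reading. Its log2 ratios were -0.05 and 0.12 for sh-G1 and -0.25 and 0.18 for sh-G2, with a mean of 0.00 ± 0.05 (SD, n = 2 clones). Its knockdown intensities of 167.5 to 293 overlapped those of ctrl, 198 to 307, and both channels were well above background on every array. Most spots of every array met that mark, and the probe was dim. By the average of both channels, 26.0% of the probes kept were dimmer, against 90.45% for A_24_P105191. Its flat ratio therefore says less about the transcript. The array files list both probes under the same RefSeq transcript, yet their log2 ratios differed by 3.65 to 4.48 on each array. The probes' positions in the transcript were not analysed here, so which of the isoforms each reads is not known. The study listed HS6ST2 among its upregulated genes and reported higher HS6ST2 by quantitative PCR after knockdown. That measurement was not analysed here.
HS6ST1 makes the same modification. Probe A_24_P8220 gave -0.67 and 0.08 for sh-G1 and -0.87 and 0.10 for sh-G2 (mean -0.34 ± 0.07, SD, n = 2 clones). Both arrays with the knockdown RNA in Cy5 were low and both with it in Cy3 were near 0, so its ratio moved with the dye in both clones. Probe A_23_P90587 gave -0.22, -0.11, -0.21 and -0.08, a mean of -0.15 with all 4 arrays below 0. For HS6ST3, the other paralog, probe A_23_P422911, whose knockdown signal was well above background on 3 arrays, gave -0.20 and -0.22 for sh-G1 and -0.20 and -0.27 for sh-G2, and probe A_23_P32629 gave -0.13, 0.21, -0.08 and 0.35. Neither paralog came near the ratio of HS6ST2 probe A_24_P105191 on any array.

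**Figure D1:**
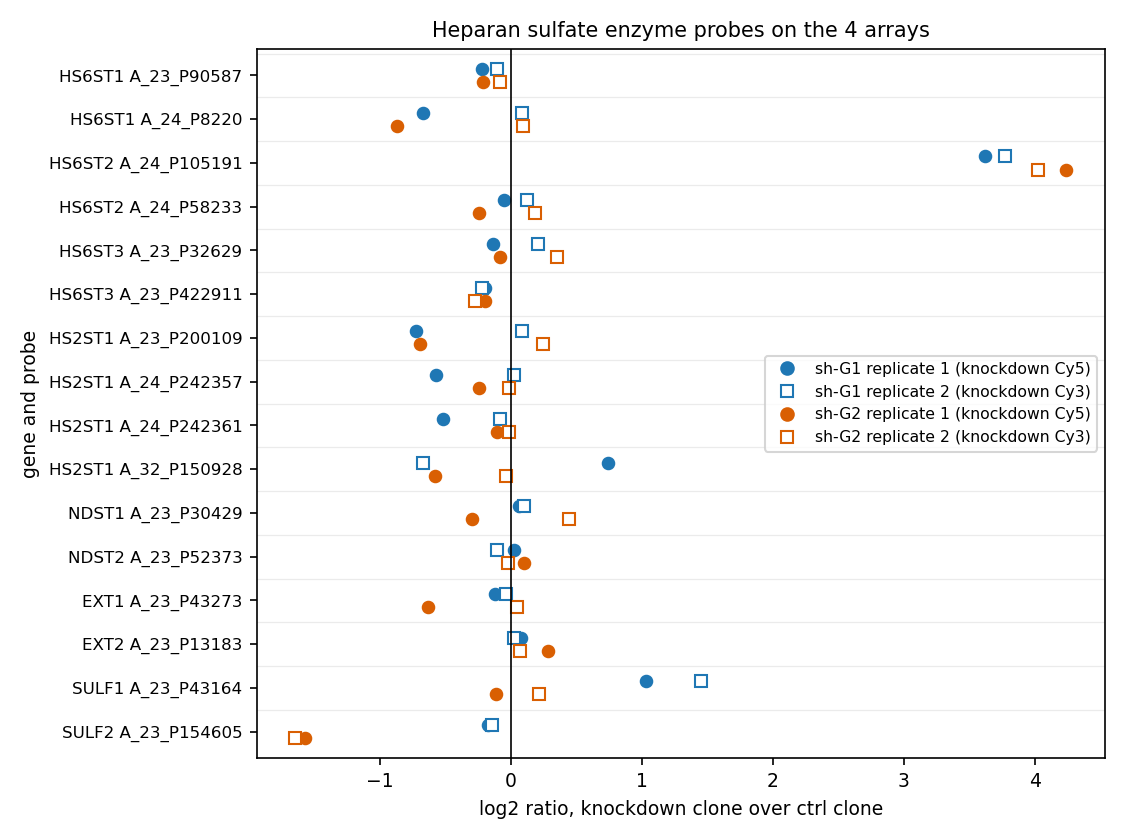
Log2 ratio of knockdown over ctrl (x axis) of the 16 probes (y axis) on each of the 4 arrays, with colour for the clone, filled circles for knockdown RNA in Cy5 and open squares for knockdown RNA in Cy3. HS6ST2 probe A_24_P105191 lies between 3.62 and 4.24, its other probe between -0.25 and 0.18, SULF1 is high in sh-G1 and SULF2 is low in sh-G2.

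HS2ST1, the only 2-O-sulfotransferase of the pathway, had 4 probes. Probe A_23_P200109 gave -0.72 and 0.08 for sh-G1 and -0.70 and 0.25 for sh-G2, again low on the Cy5 arrays only. Probes A_24_P242357 and A_24_P242361 ranged from -0.57 to 0.02 and from -0.52 to -0.01, with means of -0.20 and -0.18. The fourth, A_32_P150928, gave 0.74 and -0.67 in the same clone sh-G1 and -0.58 and -0.04 in sh-G2. Its arrays disagreed by 1.41 and its mean was -0.14 ± 0.24 (SD, n = 2 clones).
The N-deacetylase/N-sulfotransferases, which prepare the chain for every later sulfation, had 1 probe each. NDST1 gave 0.06, 0.10, -0.30 and 0.44 and NDST2 gave 0.02, -0.11, 0.10 and -0.02, with means of 0.08 and 0.00. The NDST1 probe was dim, with 12.8% of the probes kept dimmer. The polymerase subunits EXT1 and EXT2, which lengthen the chain as a complex, also had 1 probe each. EXT1 gave -0.12, -0.04, -0.63 and 0.05, a mean of -0.18, and EXT2 gave 0.08, 0.02, 0.28 and 0.07, a mean of 0.11. Over these 4 genes the single arrays ranged from -0.63 to 0.44, and EXT2 was the only one of them above ctrl on all 4 arrays.
Of the 10 genes, the endosulfatases had the widest spread between the clones. SULF1 (A_23_P43164) had levels of 8.08 and 8.30 in sh-G1 against ctrl levels of 7.04 and 6.85 on the same arrays. In sh-G2 its levels were 7.45 and 7.18 against ctrl levels of 7.57 and 6.97. Both sh-G1 levels lay above all other levels of the probe, and the sh-G2 levels lay within the range of ctrl. The log2 ratios were 1.03 and 1.45 for sh-G1 and -0.11 and 0.21 for sh-G2, a mean of 0.65 ± 0.84 (SD, n = 2 clones).
SULF2 (A_23_P154605) was also higher in sh-G1 than in sh-G2, but its departure from ctrl was in sh-G2. Its levels were 11.92 and 11.82 in sh-G1 and 10.43 and 10.26 in sh-G2, against ctrl levels of 11.91 to 12.09. Both sh-G2 levels lay below every other level of the probe. The log2 ratios were -0.17 and -0.15 for sh-G1 and -1.57 and -1.64 for sh-G2, a mean of -0.88 ± 1.02 (SD, n = 2 clones), and the sh-G2 mean corresponds to 3.05-fold less than ctrl.

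**Figure D2:**
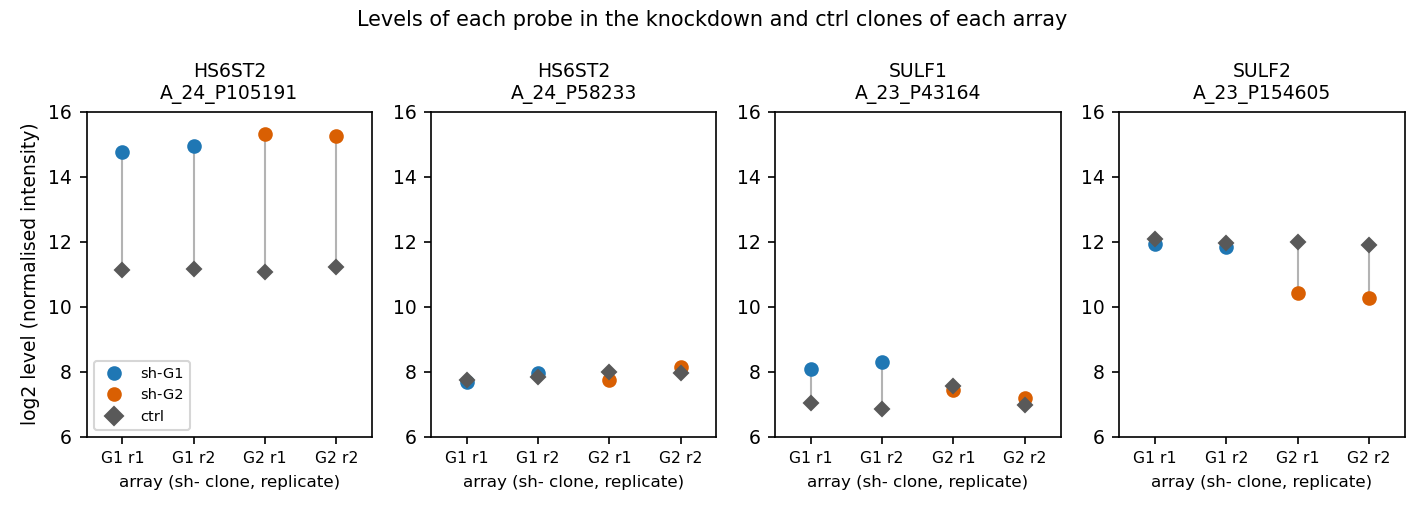
Log2 level (y axis, normalised intensity) in the knockdown clone (circles) and in ctrl (diamonds) on each of the 4 arrays (x axis, G1 and G2 for sh-G1 and sh-G2, r for replicate) for both HS6ST2 probes, SULF1 and SULF2, with a line joining the channels of an array. Ctrl levels of HS6ST2 probe A_24_P105191 stay between 11.08 and 11.21 while the clones reach 14.74 to 15.32, and levels should be compared within a panel only.

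The difference between the clones, sh-G1 minus sh-G2, was not used to choose the genes and was tested over the 4 arrays with a term for dye (limma, adjusted over all probes). SULF1 was 1.19 higher in sh-G1 than in sh-G2 (SE 0.09, 95% confidence interval 0.96 to 1.42, adjusted p = 0.0468), 2.28-fold. It was the only 1 of the 16 probes called, against 0.123% of all probes, and the call sits at the edge of the threshold: it held in 2 of 8 alternatives and the adjusted p reached 0.611 in the fit without a dye term. SULF2 was 1.45 higher in sh-G1 (SE 0.13, 95% confidence interval 1.11 to 1.79), a larger difference that did not pass (adjusted p = 0.0680). HS6ST2 probe A_24_P105191 was 0.44 lower in sh-G1 (difference -0.44, SE 0.15, 95% confidence interval -0.84 to -0.03, adjusted p = 0.625), so a difference between the clones was not established. For the other 13 probes the difference ranged from -0.24 to 0.34, with adjusted p of at least 0.815.

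**Figure D3:**
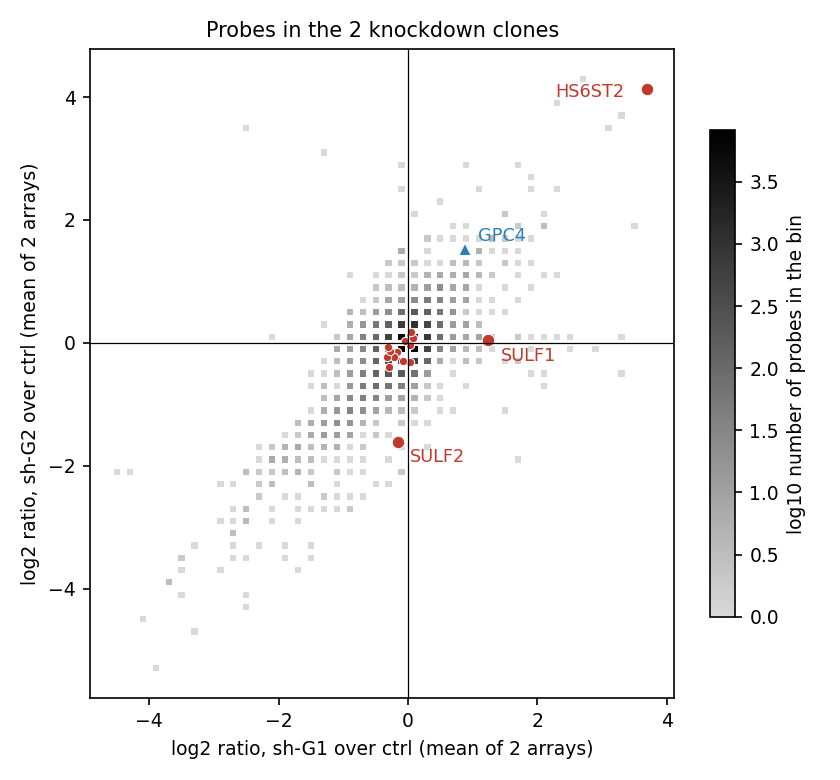
Mean log2 ratio over ctrl in sh-G1 (x axis) and in sh-G2 (y axis), with grey squares for all 39152 probes in bins shaded by the log10 number of probes, red circles for the 16 heparan sulfate enzyme probes and a blue triangle for the core protein gene GPC4. HS6ST2 lies at the upper right and SULF1 and SULF2 off the diagonal, and since both axes share the ctrl clone, the slope of the cloud is no measure of likeness between the clones.

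Counts over the list were read next. The study selected genes at least 1.5-fold changed on both arrays of a comparison. In sh-G1, 2 of the 16 probes met this, HS6ST2 A_24_P105191 and SULF1, where 1.68% of all probes did, and in sh-G2 HS6ST2 A_24_P105191 and SULF2 did, where 1.97% of all probes did. On all 4 arrays 1 of the 16 did so, HS6ST2 A_24_P105191, against 1.15% of all probes, of which 0.23% were higher and 0.919% lower. The choice of HS6ST2 fixed that count, and it fixed 1 of the 2 probes counted in each clone. The limma test of the clone means against 0, which is not reported for these 16, called 0.138% of all probes higher and 0.7% lower, 0.838% in all. Of the 16 probes, 2 were above ctrl on all 4 arrays, 4 were below and 10 had mixed signs, where 6.21% of all probes were above and 9.04% below. The 2 above were HS6ST2 A_24_P105191, again fixed by the choice, and EXT2. The median of the 16 means was -0.15, that of all probes 0.00, and without HS6ST2 A_24_P105191, SULF1 and SULF2 the means ran from -0.34 to 0.11. The dye part of the ratio had a median size of 0.17 in the 16 probes and 0.12 in all probes.
The other genes of heparan sulfate and of like sulfated sugars were read from 9 lists, through the brightest probe of each gene, and tested with limma. Of 93 genes 90 were measured (not NDST4, HS3ST6 or SLC35B2). None was called higher and 2 were called lower, where 0.184% of all genes were called higher and 0.906% lower. The lists were chosen with earlier results of these data known, so these counts and p-values are a description. The unadjusted limma p was under 0.05 for 8 higher and 12 lower genes. It was so for 5204 of the 39152 probes kept, in either direction. The mean log2 ratios of the 90 ran from -0.96 to 1.21 with a median of -0.01, where the median of all probes was 0.00. The enzymes that build the linker to the core protein (6 measured, median 0.01), the EXTL enzymes that start or help the chain (3, 0.07) and the remaining modifying enzymes, mostly 3-O-sulfotransferases (8, 0.02), had 0 limma calls in either direction, with 1, 2 and 0 genes at an unadjusted p under 0.05, and the last group ranged from -0.02 to 0.11. The medians of these groups of chain enzymes thus lay near that of all probes.
Core proteins, which carry the chain, were more varied, with 13 measured and 0 called by limma (1 higher and 3 lower at an unadjusted p under 0.05). GPC4, a glypican held to the membrane by a lipid anchor, gave 0.96 and 0.81 for sh-G1 and 1.83 and 1.23 for sh-G2. All 4 arrays were above ctrl by at least 1.5-fold, with a mean of 1.21 (SE 0.18, limma adjusted p = 0.142), 2.31-fold, where 0.355% of all genes were higher by that rule and 1.29% lower. The test was not passed, though it was without array sh-G1 replicate 2 (adjusted p = 0.00627) or sh-G2 replicate 1 (0.000692), and over all alternatives the adjusted p ran from 0.000692 to 0.795. COL18A1, the matrix proteoglycan that also yields endostatin, gave -1.08, -0.64, -1.22 and -0.93 (mean -0.96, SE 0.08, adjusted p = 0.0573), with every array below ctrl, but its dimmer probe had a mean of -0.15. SDC2, a membrane-spanning syndecan, gave -1.08, -0.74, -0.64 and -0.53 (mean -0.75, SE 0.11, adjusted p = 0.128).
The other core proteins lay nearer to ctrl. Among glypicans the means were -0.37 for GPC3, -0.35 for GPC1, -0.10 for GPC5, -0.06 for GPC2 and 0.00 for GPC6. Among syndecans they were 0.05 for SDC1, -0.01 for SDC3 and -0.02 for SDC4, and the basement membrane proteins perlecan (HSPG2) and agrin (AGRN) had -0.05 and -0.01. None of these passed the test, and the dye term was 0.28 for both GPC5 and SDC4, -0.25 for GPC3, -0.21 for SDC1 and 0.21 for AGRN.
FGF18 and CHST6 were the only listed genes called. The study had already placed both, and COL18A1, among its downregulated genes from these same arrays. The calls are therefore not independent of that earlier result. FGF18, a growth factor that binds heparan sulfate, gave -0.97, -0.58, -0.76 and -0.76, all below ctrl, and fell by 0.77 on the log2 scale (SE 0.05, limma adjusted p = 0.0342). Its dimmer probe had a mean of -0.27 that did not pass (adjusted p = 0.136). CHST6, which sulfates keratan sulfate, gave -1.02, -0.49, -1.004 and -0.49 and fell by 0.75 (SE 0.04, adjusted p = 0.0315), with the larger decrease on the arrays with knockdown RNA in Cy5. Each call was lost when 1 array was left out, FGF18 without sh-G2 replicate 2 (adjusted p = 0.0699) and CHST6 without sh-G1 replicate 1 (0.0555). Of the other sulfotransferases, 13 further genes had 0 calls. The other 10 ligands and receptors had 0 calls, and FGFR3, an FGF receptor, gave -0.37 and 0.02 for sh-G1 and -1.54 and -1.01 for sh-G2 (mean -0.73, adjusted p = 0.454), while its dimmer probe gave -0.26 and -0.13 for sh-G2, with a mean of -0.08.
The remaining lists, breakdown enzymes (10 measured), sulfate and sugar donors (9) and chondroitin and dermatan sulfate (16), had 0 limma calls, with 0, 3 and 6 genes at an unadjusted p under 0.05. PAPSS2, which makes the sulfate donor of all these sulfotransferases, gave 0.50, 1.12, 0.41 and 0.35, all above ctrl, with a mean of 0.60 (SE 0.12, adjusted p = 0.226), and its other probe had 0.44. HPSE2, a relative of the enzyme that cuts the chain, had 1 high array, 3.18 on sh-G2 replicate 2 against -0.07, -0.02 and 0.02 on the rest, and its other probe had 0.01.

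**Figure D4:**
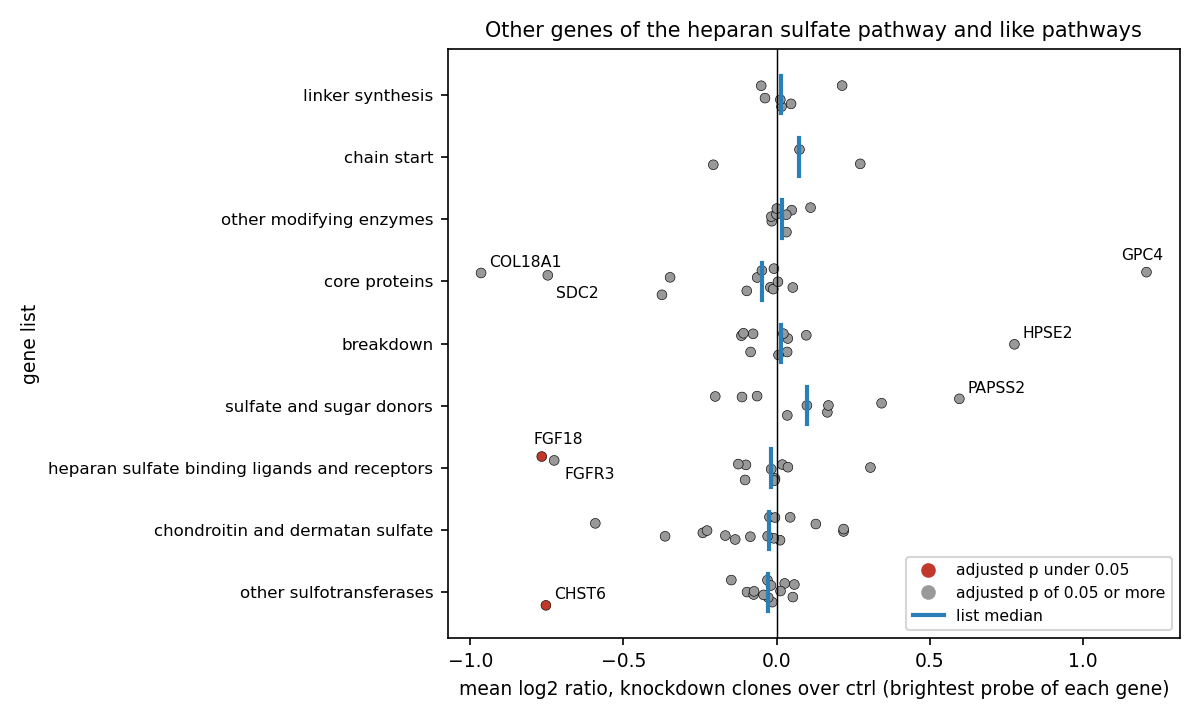
Mean log2 ratio of knockdown over ctrl (x axis) of the brightest probe of each measured gene, by gene list (y axis), with red for the 2 genes with an adjusted p under 0.05, grey for the rest, a blue bar for the list median and names for 8 genes at the ends. The list medians run from -0.05 to 0.10, GPC4 lies at 1.21 and the mean of HPSE2 rests on 1 array.

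HS6ST2 lies on the X chromosome, and its neighbours were read next. Of the 5 genes with a symbol on either side, 3 had probes kept. MBNL3, a splicing regulator, had a mean of 0.05, RAP2C, a small GTPase, had 0.24 and 0.12 at its 2 probes, and USP26, a ubiquitin protease, had 0.07. None passed the limma test (lowest adjusted p 0.236). GPC4 and GPC3, the core protein genes above, are the third and the fourth protein-coding genes on the side of USP26, with means of 1.21 and -0.37. The measured genes next to HS6ST2 were thus near ctrl, though USP26 and MBNL3 had dim probes (6.33% and 27.3% of the probes kept were dimmer). The ratio of GPC4 lay above ctrl and that of GPC3 below it.
The probes whose 4 ratios lay nearest to those of HS6ST2 A_24_P105191, by Euclidean distance over the 4 arrays, were of AMIGO2 (distance 0.865), ZFHX4 (1.30), ESRRG (1.42), PWWP3B (2.12), SUCNR1 (3.12), ADGRV1 (3.19) and HAPLN1 (3.26). AMIGO2, an adhesion protein with leucine-rich repeats, gave 3.32 and 3.26 for sh-G1 and 3.99 and 3.45 for sh-G2. SUCNR1, the succinate receptor, was highest in sh-G1 instead, with 3.75 and 3.16 against 2.36 and 1.61. HAPLN1, which links matrix proteoglycans to hyaluronan, gave 1.63, 1.89, 2.86 and 2.93. The HS6ST2 probe had the highest mean of all probes kept, so a short distance to it selects other high ratios. The list is not read as a shared pattern.
Markers of other cell types were read beside these results. All 8 epithelial carcinoma markers were measured, and their summed log2 level was 12.89 to 13.15 in the clones and 14.03 to 14.24 in ctrl. KRT18 and KRT8, keratins of simple epithelia, fell by 2.32 and 1.03 (limma adjusted p = 0.0365 and 0.0316), and the other 6 were not called. The summed level of the 4 fibroblast markers measured (not COL1A1) was 10.96 to 13.02 in the clones and 14.91 to 15.04 in ctrl, and the lower sum was carried by DCN and LUM. DCN, the proteoglycan decorin, gave -4.12 and -4.37 in sh-G1 and -2.07 and -2.11 in sh-G2, and LUM, lumican, gave -4.65 and -4.51 in sh-G1 and -2.08 and -2.01 in sh-G2. The means of COL1A2 and FAP were -0.33 and 0.00, and none of the 4 passed the limma test (lowest adjusted p 0.187). Leukocyte markers (4 measured, 11.64 to 11.75 against 11.63 to 11.77) and endothelial markers (4 measured, 10.94 to 11.53 against 10.95 to 11.40) overlapped between the clones and ctrl. The probe of the leukocyte gene PTPRC was also well above background in both channels of all 4 arrays. The part of these shifts in the ratios of the heparan sulfate genes was not tested.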

How the data were processed

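The authors extracted the scans of 4 Agilent 2-colour arrays with Feature Extraction (version 8.5.1.1 in the submitters' processing notes, 10.5.1.1 in the file header). They deposited, for each spot and channel, the median intensity, its local background and marks for outliers and signal well above background, with the software's log10 ratio of Cy5 over Cy3. In the series matrix, 3 of 4 deposited columns equal that log10 ratio and the other holds its error and was left out. The software's p-values were not used.
The members and gene lists were chosen with earlier results of these data known. In limma 3.58.1 (R 4.3.3), spots without outlier marks were background corrected by normexp (offset 50) and loess normalised within arrays, ratios were given the direction knockdown over ctrl, and repeated spots of a probe were averaged. The median intensity was used, as the files give no mean. Levels were further scaled with Aquantile. Of 41000 probes, 40905 had a value on all arrays, and the filter (knockdown or ctrl signal well above background on each array) kept 39152. A RefSeq table (GRCh38.p14, not the build of the array header) gave names and gene order only and named 25398 probes. Promoter windows were found for 8 of the 10 genes.
Clone means were tested against 0 with limma (eBayes with trend, Benjamini-Hochberg over all kept probes, threshold 0.05), which leaves out the spread of ctrl. The clone difference was fitted over the 4 arrays with a dye term. Both tests were tested on simulated data. The simulated noise was independent, with no shared ctrl clone and no dye effect, so that check does not bear on these 2 limits. Genes named are GALNT3, the 10 members, listed genes called or at least 1.5-fold changed on all arrays, all core proteins, 5 genes on each side of HS6ST2 and, of the 10 probes nearest to HS6ST2, those up to HAPLN1 (the rest are not reported here). PAPSS2, HPSE2, FGFR3 and the keratin and fibroblast markers were named after their values were seen. Alternatives were other background corrections, scalings, filters and probes, arrays left out, the series matrix values, clone as a random block, no intensity trend, a spread given to ctrl, and no dye term.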

Additional observations from a re-analysis of the deposited data

Results flagged for a closer look

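Among the heparan sulfate genes, the other listed genes and the cell type markers, 3 probes differed between the clones by the test of the difference itself, sh-G1 minus sh-G2 (limma over 4 arrays with a dye term), of 48 called among all 39152 probes. SULF1 differed by 1.19 (adjusted p = 0.0468), from a ratio near ctrl in sh-G2 to 2.36-fold in sh-G1. DCN, decorin, differed by -2.15 (adjusted p = 0.0300), and LUM, lumican, by -2.53 (adjusted p = 0.0181), both lower than ctrl in both clones and lowest in sh-G1. Both belong to the list of fibroblast markers. No group had the 4 arrays that a check for a single far array needs.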

How the results depend on the processing

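The mean of HS6ST2 A_24_P105191 stayed between 3.86 and 3.97 in all 12 alternatives, leave-one-out included, and it was the 1 heparan sulfate enzyme probe at least 1.5-fold changed on all arrays in each of them. Enzyme probes called between the clones numbered 1 and became 0 with the software's log ratio, no background correction, an offset of 0, median centring in place of loess, both channels above background and no dye term, where 2 or 3 had an unadjusted p under 0.05. All probes called between the clones numbered 48, and 31 with both channels above background and 5 with no dye term. Of 224 other recomputed values of knockdown over ctrl, 56 moved past the spread of the clones or across the threshold. With 1 array left out, the mean ran from -0.58 to -0.10 for HS6ST1 A_24_P8220, from -0.51 to -0.04 for HS2ST1 A_23_P200109 and from -0.49 to 0.22 for HS2ST1 A_32_P150928, whose sign thus turned. The counts of all probes also moved. Probes called higher numbered 54, and 118 with the software's log ratio, 214 with the series matrix values, 848 with clone as a random block and 0 with a spread given to ctrl. Probes called lower numbered 274, and 794, 1721 and 0 under the last 3 of these. Leaving out 1 array gave 56 to 344 called higher and 326 to 862 called lower. Listed genes called numbered 2, and 4 with the software's log ratio, 6 with the series matrix values, 12 with the random block and 0 with a spread given to ctrl, and 1 to 6 when 1 array was left out. With a spread given to ctrl, limma left 1862 probes and 8 listed genes at an unadjusted p under 0.05, and the adjusted p was 0.227 for FGF18 and 0.209 for CHST6. Probes at least 1.5-fold higher and lower on all arrays numbered 90 and 360, and 140 and 603 with the series matrix values. Leaving out 1 array gave 93 to 137 and 382 to 451. GPC4 passed with the series matrix values (adjusted p = 0.0123) and with the random block (0.00599). The cause was not tested, except that left-out arrays and the series matrix hold fewer arrays. Without 1 array the clone difference has no residual degrees of freedom and is a value without a test. Each ratio pairs the channels of 1 array, and the replicate numbers stand for the dye orientation, which was a term in the fit between clones. These values are limited by the 1 ctrl clone and by the unknown positions of the HS6ST2 probes. They are limited too by dim probes, those of HS6ST3, SULF1, NDST1 and GALNT3, HS6ST2 A_24_P58233 and HS6ST1 A_23_P90587.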
